A study of Mus musculus with 12 samples.

Results

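The 9 genes described here encode the salt-inducible kinases (*Sik1*, *Sik2* and *Sik3*), the CREB-regulated transcription coactivators (*Crtc1*, *Crtc2* and *Crtc3*) and the CREB family of transcription factors (*Creb1*, *Crem* and *Atf1*). They were chosen by name, as the rows whose Ensembl identifiers map to these symbols, and all 9 were found among the 56980 gene rows of the count matrix. Bulk RNA-Seq was carried out on W-20 cells, a murine bone marrow stromal cell (BMSC) line, in 4 groups of 3 libraries. WT cells and Y428F cells were each exposed for 2 hours to 50 nM parathyroid hormone (PTH) or to vehicle, which was PBS. Y428F cells are a stable line made by introducing a Flag-tagged form of the Hippo pathway coactivator YAP, on a CMV plasmid, in which a tyrosine was replaced by phenylalanine, followed by selection of positive clones with puromycin. The genotype field of the Y428F libraries reads WT and only their titles name the mutation. The study's account of the RNA-Seq names these cells in one place by a serine-to-alanine change together with the tyrosine change and in another by the tyrosine change alone, so the introduced YAP may carry both, and the titles name only the latter. No library of cells carrying introduced YAP without the tyrosine change was analysed here, so the mutation, the plasmid, the selection and the clone cannot be told apart in any difference between the lines. Library totals ranged from 17127897 to 19057319 counts. Nothing in the labels says that the replicates came from separate cultures, so p-values measure the spread between these libraries, which may be technical.

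Salt-inducible kinases belong to the family of kinases related to AMPK and are switched on by the kinase LKB1. They phosphorylate CRTC proteins and class IIa histone deacetylases, which 14-3-3 proteins then hold in the cytoplasm. When PTH raises cAMP, protein kinase A (PKA) phosphorylates the salt-inducible kinases and blocks this action, CRTC proteins enter the nucleus, and there they bind CREB on cAMP response elements (CREs). In bone cells this is a well-known route by which PTH acts on gene expression, and *Sik1* and *Crem* are themselves CREB targets in many cell types. The counts measure mRNA and carry no information on phosphorylation or location of the proteins.

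After 2 hours PTH changed 1 of the 9 genes in WT cells and 2 in Y428F cells, shares that are close to or not below those of all genes tested. In WT cells *Atf1* rose, by 0.22 on the log2 scale, and none of the other 8 passed the test, which 11.8% of all genes passed. In Y428F cells *Atf1* rose by 0.24 and *Sik1* fell by 0.35, where 12.4% of all genes passed. More of them differed between the lines: with vehicle, *Crtc1*, *Sik1*, *Crtc3* and *Sik3* were lower in Y428F cells than in WT cells and *Atf1* was higher, in a comparison that 45.1% of all genes passed. Changed means here an adjusted p under 0.05 from the quasi-likelihood test of edgeR, with the Benjamini-Hochberg method applied to all genes tested. Levels are given in CPM, which are counts scaled to a common library size with the TMM method of edgeR. Each library mixes many cells, so fewer cells of a type and less RNA per cell cannot be told apart.

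**Figure D1:**
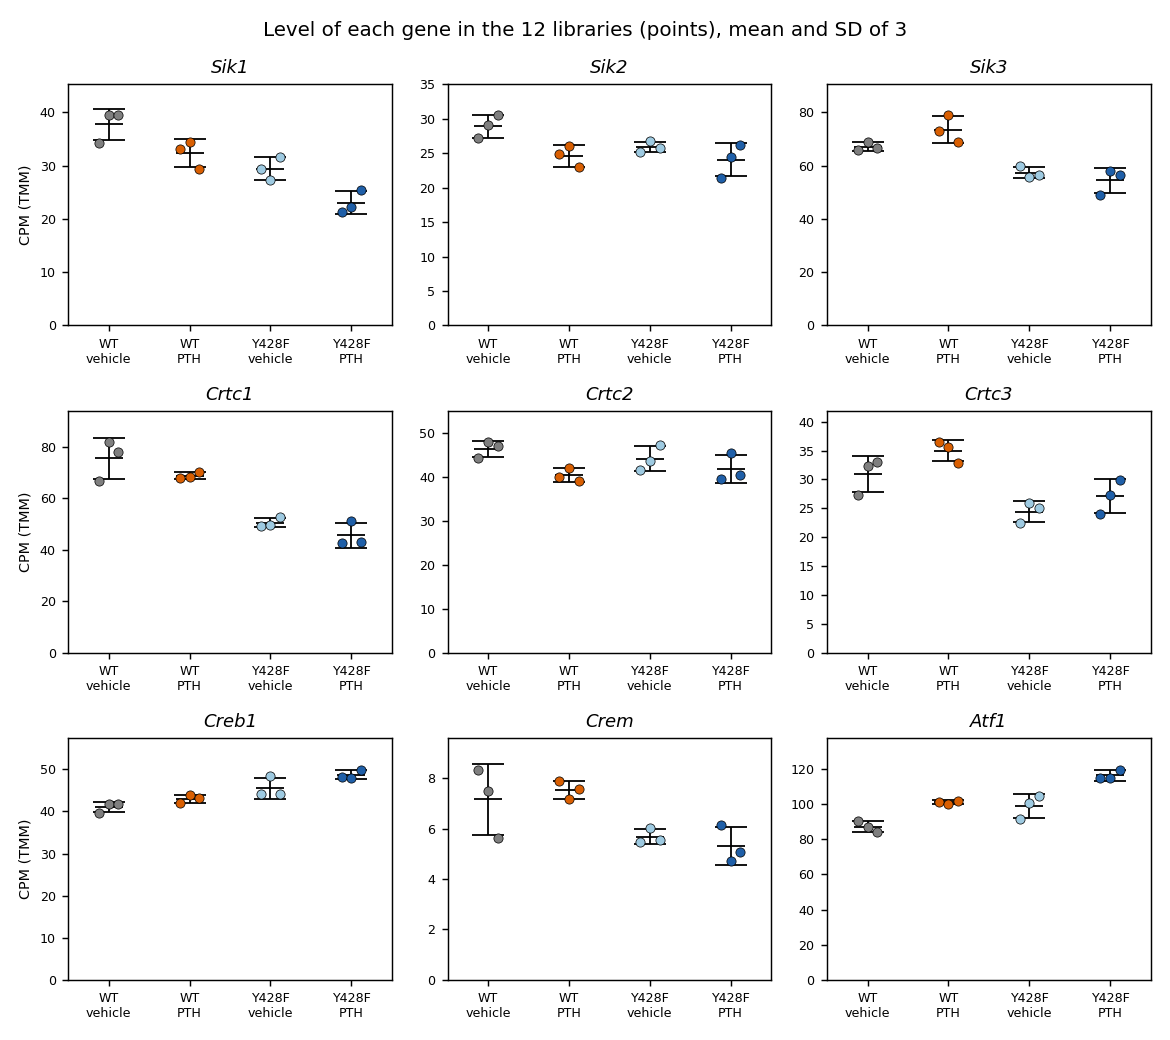
CPM (linear axes from 0) of the 9 genes in WT and Y428F cells with vehicle or PTH. Points are libraries, and lines mark the mean and SD of 3. *Atf1* lies higher with PTH in both lines, with means of 87.1 and 101 CPM in WT cells and of 98.9 and 116 CPM in Y428F cells, whereas *Crtc1* separates the lines and not the treatments.

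All 9 genes were expressed in every library, with counts from 84 for *Crem* to 2175 for *Atf1*. Exon lengths were those of GENCODE vM39, whereas the counts were made with vM31, so the lengths may hold exons that were not counted. Compared per kb of exon, *Atf1* had the highest level in WT cells with vehicle, at 20.2 ± 0.726 CPM per kb (SD, n = 3). *Crtc2* followed at 11.0 ± 0.454, then *Sik3* at 6.97 ± 0.165 and *Crtc1* at 6.30 ± 0.654 CPM per kb. *Sik1* (3.11 ± 0.246) and *Creb1* (2.92 ± 0.0878) overlapped between libraries, as did *Crtc3* (2.42 ± 0.246) and *Sik2* (2.08 ± 0.121). *Crem* was the lowest at 0.635 ± 0.123 CPM per kb. *Atf1*, *Crtc2* and *Sik3* held the first 3 places and *Crem* the last in all 4 groups. The middle places moved: *Sik1* was at place 5 in WT cells with vehicle and at place 7 in Y428F cells with PTH, at 1.90 ± 0.179 CPM per kb, where its libraries overlapped those of *Sik2*. Dividing by the longest annotated transcript in place of all exonic bases kept 7 of the 9 places in WT cells with vehicle and 4 in Y428F cells with PTH.

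**Figure D2:**
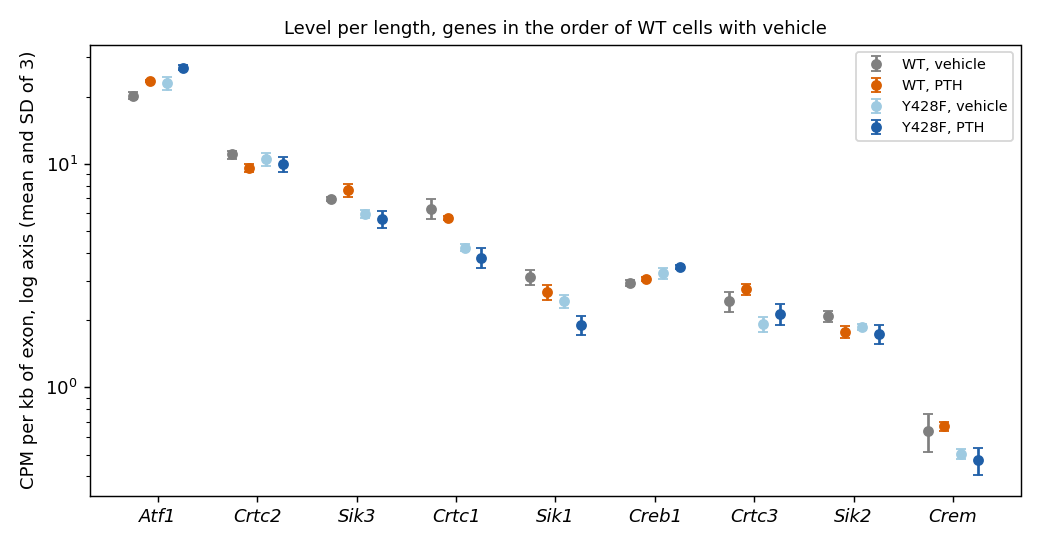
CPM per kb of exon (log axis) of the 9 genes, ordered by their level in WT cells with vehicle. Points are means of 3 libraries and bars their SD. The level spans from 0.635 for *Crem* to 20.2 for *Atf1* in that group, and the first 3 genes keep their order in every group.

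The proximal promoters were searched for the CRE, to which CREB, CREM and ATF1 bind. RefSeq windows from 250 bases before to 50 bases after a start site (table of GRCm38.p6, placed on GRCm39 by exact match) were at hand for *Sik2*, *Sik3*, *Crtc1*, *Crtc3*, *Creb1* and *Atf1*, and not for *Sik1*, *Crtc2* and *Crem*. These start sites can differ from the gene bounds given below. The *Creb1* window opens at chr1:64571713 and the annotated gene at chr1:64571731, so most of this window lies within the gene. The palindromic CRE, TGACGTCA, was in none of these 6 windows and in 1.79% of all 32851 windows of this length. The shorter motif TGACG, or CGTCA on the other strand, which the palindrome also contains, was in 20.8% of all windows. It was present once in *Atf1*, at position -90 from the start, at 3 places in *Sik3* (-133, -116 and -57) and at 2 places in *Sik2* (-1 and 13), and it was absent from the windows of *Crtc1*, *Crtc3* and *Creb1*. Of 20 known CREB target genes that had a window, 17 held the shorter motif (85.0%), against 23.0% of all 27025 genes, and such genes are often known as targets because of their CREs. A match is a description of the sequence and does not show that a factor was bound. The windows of *Atf1*, which rose with PTH in both lines, of *Sik3*, which held the most matches, and of *Crtc1*, which differed most between the lines and held none, are given 5′ to 3′ on the strand of the gene, with the matches in capitals. They lie at chr15:100125490-100125789 on the plus strand (*Atf1*), chr9:45923868-45924167 on the plus strand (*Sik3*) and chr8:70892174-70892473 on the minus strand (*Crtc1*) of GRCm39.
Atf1: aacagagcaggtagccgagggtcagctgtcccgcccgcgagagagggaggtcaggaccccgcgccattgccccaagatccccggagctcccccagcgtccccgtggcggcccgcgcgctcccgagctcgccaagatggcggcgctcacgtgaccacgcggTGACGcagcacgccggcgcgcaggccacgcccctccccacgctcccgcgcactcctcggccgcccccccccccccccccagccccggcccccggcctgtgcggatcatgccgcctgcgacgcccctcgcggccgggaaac
Sik3: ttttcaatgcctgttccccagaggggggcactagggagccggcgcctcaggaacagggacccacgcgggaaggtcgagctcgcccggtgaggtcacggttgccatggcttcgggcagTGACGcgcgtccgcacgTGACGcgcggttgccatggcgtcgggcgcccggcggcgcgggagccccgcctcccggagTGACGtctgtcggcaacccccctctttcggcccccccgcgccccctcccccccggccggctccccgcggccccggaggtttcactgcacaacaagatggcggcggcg
Crtc1: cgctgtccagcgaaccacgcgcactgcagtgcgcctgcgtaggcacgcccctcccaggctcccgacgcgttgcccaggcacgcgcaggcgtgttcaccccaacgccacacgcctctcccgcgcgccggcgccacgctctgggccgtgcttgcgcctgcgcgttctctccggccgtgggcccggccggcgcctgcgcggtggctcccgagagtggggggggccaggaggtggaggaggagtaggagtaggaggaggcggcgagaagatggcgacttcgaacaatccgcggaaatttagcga

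*Sik1* (ENSMUSG00000024042.8, chr17:32058850-32074818, minus strand) encodes the kinase of this family whose mRNA is known to be induced by cAMP in several tissues. Its level was 34.3, 39.4 and 39.4 CPM in the WT libraries with vehicle and 33.0, 34.4 and 29.4 CPM in those with PTH. One vehicle library lay below the highest PTH library, so the groups overlapped, and the log2 fold change of -0.22 ± 0.0864 (SE) did not pass the test (adjusted p = 0.129). Without that library, replicate 1 of WT cells with vehicle, the value was -0.27 with an adjusted p of 0.0406. In Y428F cells *Sik1* was at 29.4, 27.3 and 31.6 CPM with vehicle and at 21.4, 22.2 and 25.4 CPM with PTH. All PTH libraries were below all vehicle libraries, and *Sik1* fell by 0.35 ± 0.0915 on the log2 scale (adjusted p = 0.0131, edgeR). This call was lost without replicate 3 of Y428F cells with vehicle (adjusted p = 0.0723) or replicate 1 of Y428F cells with PTH (adjusted p = 0.0606).

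*Sik2* (ENSMUSG00000037112.17, chr9:50800947-50920383, minus strand) encodes the kinase known from osteocytes as a target of PTH through PKA. In WT cells it was at 27.2, 29.1 and 30.5 CPM with vehicle and at 24.9, 26.1 and 22.9 CPM with PTH. The groups did not overlap, but the log2 fold change of -0.22 ± 0.0806 gave an adjusted p of 0.0919. In Y428F cells the libraries overlapped, from 25.2 to 26.7 CPM with vehicle and from 21.5 to 26.2 CPM with PTH (log2 fold change -0.11, adjusted p = 0.504). *Sik2* shares 1904 exonic bases with *Ppp2r1b* on the opposite strand, and whether the counting used the strand is not given in the sources used here, so part of its counts could belong to that gene.

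*Sik3* (ENSMUSG00000034135.16, chr9:45924102-46135492, plus strand) encodes a widely expressed kinase of the family that is known for its role in growth plate cartilage. It was at 65.8, 68.9 and 66.5 CPM in WT cells with vehicle and at 72.8, 78.9 and 68.8 CPM with PTH. Only the lowest PTH library fell within the range of the vehicle libraries, and the log2 fold change was 0.14 (adjusted p = 0.232). In Y428F cells it was at 59.9, 55.8 and 56.4 CPM with vehicle and at 49.0, 57.9 and 56.6 CPM with PTH, which overlapped (log2 fold change -0.07, adjusted p = 0.585).

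The coactivators CRTC1, CRTC2 and CRTC3 carry the signal from salt-inducible kinases to CREB, and none of their genes passed the test for PTH in either line. *Crtc1* (ENSMUSG00000003575.14, chr8:70834994-70892394, minus strand) was at 66.8, 81.8 and 78.1 CPM in WT cells with vehicle and at 67.8, 68.5 and 70.5 CPM with PTH. In Y428F cells it was at 49.3, 49.7 and 52.8 CPM with vehicle and at 42.6, 51.1 and 43.2 CPM with PTH. Treatments overlapped in both lines, and the log2 fold change was -0.13 in WT cells (adjusted p = 0.361) and -0.15 in Y428F cells (adjusted p = 0.263). *Crtc2* (ENSMUSG00000027936.19, chr3:90161460-90171432, plus strand), the coactivator best known from liver glucose production, was at 44.1, 47.8 and 46.8 CPM in WT cells with vehicle and at 39.8, 42.0 and 39.01 CPM with PTH. These groups did not overlap, and the log2 fold change was -0.19 ± 0.0727 (adjusted p = 0.110). In Y428F cells its libraries overlapped, from 41.5 to 47.1 CPM with vehicle and from 39.4 to 45.4 CPM with PTH. *Crtc3* (ENSMUSG00000030527.16, chr7:80236375-80338685, minus strand) was at 27.3, 32.4 and 33.0 CPM in WT cells with vehicle and at 36.4, 35.6 and 32.9 CPM with PTH. One PTH library lay just under the highest vehicle library, and the log2 fold change was 0.19 (adjusted p = 0.206). Its value in Y428F cells was 0.15 (adjusted p = 0.375), with overlapping libraries.

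Among the factors, *Atf1* (ENSMUSG00000023027.14, chr15:100125664-100159129, plus strand), which encodes a close relative of CREB1 that pairs with it on DNA, was the member that rose in both lines. In WT cells it was at 90.4, 86.8 and 84.1 CPM with vehicle and at 101, 99.96 and 102 CPM with PTH. All PTH libraries were above all vehicle libraries, and the log2 fold change was 0.22 ± 0.0602 (95% interval 0.09 to 0.35, adjusted p = 0.0298). In Y428F cells it was at 91.4, 101 and 104 CPM with vehicle and at 115, 115 and 119.8 CPM with PTH. Again no libraries overlapped, and the log2 fold change was 0.24 ± 0.0571 (95% interval 0.12 to 0.35, adjusted p = 0.00868). In WT cells the value was 0.20 to 0.26 when libraries were left out in turn, but the call was lost without each of them except replicate 1 of the vehicle group. The adjusted p was then 0.0905 and 0.119 without vehicle replicates 2 and 3, and 0.105, 0.0695 and 0.0586 without PTH replicates 1, 2 and 3. With the replicate number fitted as a block the value in WT cells was still 0.22, but the call was lost (adjusted p = 0.0707, edgeR). In Y428F cells the call was lost only without replicate 1 of the vehicle group (log2 fold change 0.19, adjusted p = 0.0684).

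*Creb1* (ENSMUSG00000025958.15, chr1:64571731-64643707, plus strand), which encodes CREB itself, was at 39.7, 41.9 and 41.7 CPM in WT cells with vehicle and at 41.9, 43.9 and 43.1 CPM with PTH. The groups did not overlap, but their nearest libraries rounded to the same value, and the log2 fold change of 0.07 had an adjusted p of 0.604. In Y428F cells it was at 44.0, 48.4 and 44.1 CPM with vehicle and at 48.2, 48.0 and 50.0 CPM with PTH, which overlapped (log2 fold change 0.10, adjusted p = 0.375). *Crem* (ENSMUSG00000063889.17) encodes both activators and the repressor ICER, a short form made from an internal promoter in response to cAMP. Gene-level counts do not separate these forms. It had 105 to 158 counts in WT libraries with vehicle and 117 to 134 with PTH. The log2 fold change was 0.08 in WT cells, with a 95% interval from -0.25 to 0.42, and -0.10 in Y428F cells, from -0.42 to 0.22. Both intervals include 0, so a change within these limits was neither shown nor excluded. The value in WT cells turned to -0.06 without replicate 3 of the vehicle group, the library with the lowest *Crem* level. *Crem* shares 788 exonic bases with *Gm6225* on the opposite strand.

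Of the 9 members, 1 was called for PTH in WT cells, against 11.8% of the 15583 genes tested, and 2 in Y428F cells, against 12.4% of 17691 genes. By direction, the calls were 1 higher and 0 lower in WT cells (6.88% and 4.91% of all genes) and 1 higher and 1 lower in Y428F cells (6.61% and 5.78%). Libraries of the treatments did not overlap for 4 of the 9 in WT cells, against 29.0% of all genes, and for 2 of the 9 in Y428F cells, against 30.8%. In WT cells 2 of these were higher and 2 lower (14.4% and 14.6% of all genes), and in Y428F cells 1 was higher and 1 lower (15.5% and 15.4%). DESeq2's Wald test also called 1 and 2 members. The median log2 fold change of the members was 0.07 in WT cells and -0.08 in Y428F cells, beside medians of -0.01 and -0.01 over all genes tested. The scaling mattered in WT cells. With library totals in place of TMM factors, *Atf1* no longer passed (0.16, adjusted p = 0.105), and *Sik1* (-0.28, adjusted p = 0.0488), *Sik2* (-0.28, adjusted p = 0.0318) and *Crtc2* (-0.25, adjusted p = 0.0375) did. This scaling moved the median over all genes to -0.07 and the share of higher genes among all called genes from 58.4% to 38.0% in WT cells and from 53.4% to 38.1% in Y428F cells.

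**Figure D3:**
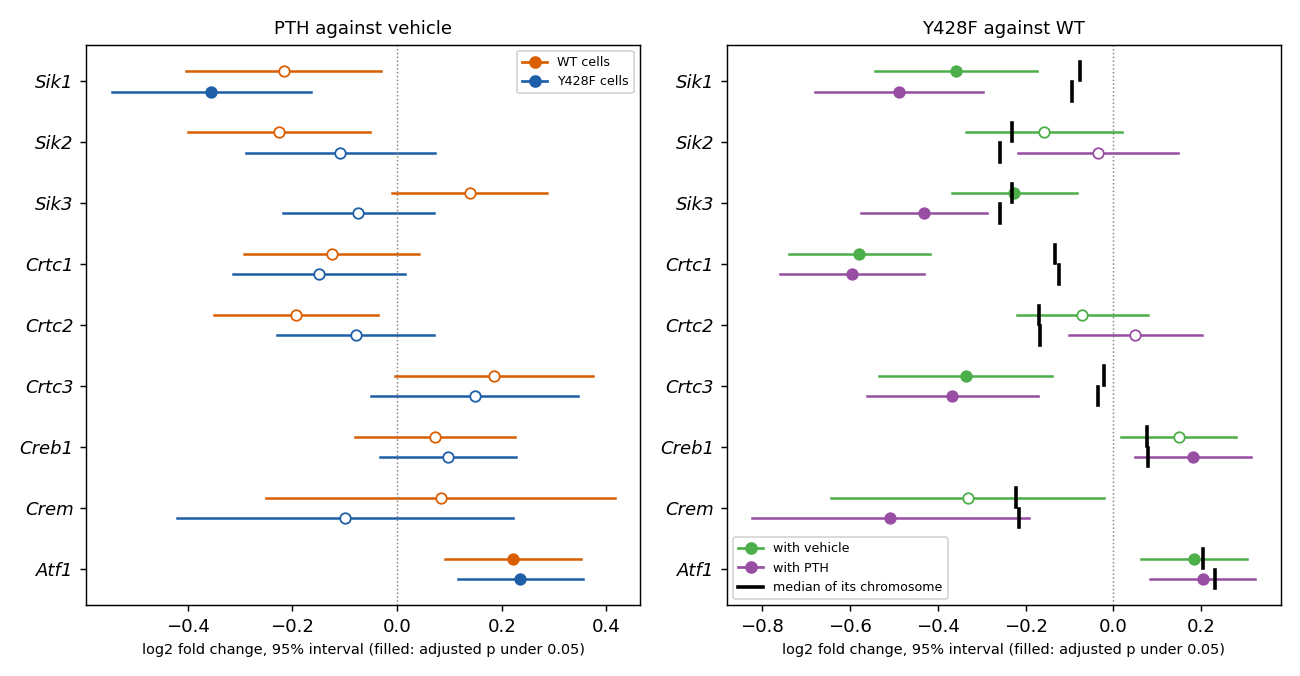
Log2 fold changes with 95% intervals of the 9 genes for PTH against vehicle (left) and for Y428F against WT cells (right). Filled points had an adjusted p under 0.05, and black bars give the median of all expressed genes on the same chromosome. PTH values lie between -0.35 and 0.24, and *Crtc1* is the farthest from 0 between the lines, at -0.58 with vehicle and -0.59 with PTH.

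The response to PTH was then compared between the lines with an interaction term. None of the 9 members passed (0.413% of all genes did), with 0 calls by edgeR and 0 by DESeq2, and 1 member, *Sik3*, had an unadjusted p under 0.05. For *Sik3* the response in Y428F cells minus that in WT cells was -0.21 on the log2 scale, with a 95% interval from -0.41 to -0.0040 and an adjusted p of 0.694. For *Sik1* it was -0.13 (interval -0.40 to 0.13), so the call in Y428F cells and its absence in WT cells were not shown to differ. For *Atf1* it was 0.02 (interval -0.15 to 0.19).

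Between the lines, *Crtc1* had the largest difference of the 9. With vehicle its lowest WT library was at 66.8 CPM and its highest Y428F library at 52.8 CPM, a log2 difference of -0.58 ± 0.0769 (adjusted p = 2.64e-06). With PTH the difference was -0.59 ± 0.0783 (adjusted p = 2.19e-06). *Sik1* was lower in Y428F cells by 0.36 with vehicle and by 0.49 with PTH on the log2 scale (adjusted p = 0.00216 and 0.000153). *Sik3*, at -0.23 with vehicle and -0.43 with PTH, and *Crtc3*, at -0.34 and -0.37, were lower in Y428F cells under both conditions, with no overlap between libraries. *Crem* was lower with PTH (-0.51 ± 0.151, adjusted p = 0.00885). With vehicle its value was -0.33 with an adjusted p of 0.0763, which was 0.0129 without replicate 3 of WT cells with vehicle. *Atf1* was higher in Y428F cells, by 0.18 ± 0.0576 with vehicle (adjusted p = 0.0131) and by 0.20 ± 0.0573 with PTH (adjusted p = 0.00600). Its call with vehicle was lost without replicate 3 of WT cells (adjusted p = 0.0574) or replicates 2 or 3 of Y428F cells (0.0530 and 0.0959). *Creb1* was higher with PTH (0.18 ± 0.0630, adjusted p = 0.0238), a call lost without replicate 1 of WT cells with PTH (adjusted p = 0.0704) or replicate 3 of Y428F cells with PTH (0.105). With vehicle *Creb1* was at 0.15 with an adjusted p of 0.0610, although its libraries did not overlap. *Sik2* and *Crtc2* did not pass under either condition, with values from -0.16 to 0.05.

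These counts, 5 of 9 with vehicle and 7 of 9 with PTH, stand beside 45.1% and 45.7% of all genes tested. With vehicle 1 was higher and 4 lower (22.4% and 22.7% of all genes), and with PTH 2 were higher and 5 lower (22.8% and 23.0%). Libraries of the lines did not overlap for 7 of the 9 with vehicle, against 53.8% of all genes, and for 7 with PTH, against 51.9%. Under both conditions 2 of these were higher and 5 lower, beside 27.5% and 26.3% of all genes with vehicle and 25.6% and 26.3% with PTH. Both comparisons were read beside the chromosomes that carry the genes, since the median difference over the genes of some chromosomes was away from 0. The median difference with vehicle over the 461 expressed genes of chromosome 15 was 0.20, and 46.9% of them lay below *Atf1*. Over the 612 expressed genes of chromosome 9 it was -0.23, equal to the value of *Sik3* to 2 decimals, and 75.8% of those genes were lower in Y428F cells. *Crtc1* lay farther out, with 15.1% of the 634 genes of chromosome 8 below it and a chromosome median of -0.13, and *Sik1* and *Crtc3* had 24.2% and 23.7% of the genes of chromosomes 17 and 7 below them. With PTH the median of chromosome 9 was -0.26 and *Sik3* lay farther out than with vehicle, with 33.8% of the genes below it. *Crem* was at -0.51 with PTH, beside a median of -0.21 over the 310 genes of chromosome 18, 23.5% of which lay below it. *Atf1* and *Crtc1* kept a similar place with PTH, with 47.1% and 15.1% of the genes of their chromosomes below them. The part of these shifts in the differences of single genes was not tested.

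The genes around this pathway were read from lists written from general knowledge of their roles, with earlier results of these data known. Over all genes tested, 6.88% rose and 4.91% fell with PTH in WT cells and 6.61% rose and 5.78% fell in Y428F cells, and 0.413% passed the test of the difference in response, which among the listed genes only *Junb* and *Pde4d* passed. Among 13 tested genes that act on salt-inducible kinases (the LKB1 complex and PKA with its inhibitors), 2 rose with PTH in WT cells. *Prkar2a*, a regulatory subunit of PKA, rose by 0.38 (adjusted p = 0.00362). *Cab39*, the scaffold of the LKB1 complex, rose by 0.23 (adjusted p = 0.0311), a call lost without WT vehicle replicates 2 or 3 or PTH replicates 1 or 2 (adjusted p = 0.0760 to 0.126). In Y428F cells 0 of the 13 passed in edgeR and in DESeq2, and 2 had an unadjusted p under 0.05, the LKB1 gene *Stk11* (-0.12) and *Stradb* (-0.28), named after their values were seen. *Prkar2a* and *Cab39* were at 0.13 and 0.10 there, with adjusted p of 0.244 and 0.304. Medians of this list were -0.01 and -0.00.

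Of 10 tested kinases of the AMPK-related family, 2 rose and 2 fell with PTH in each line, where 11.8% of all genes were called in WT cells and 12.4% in Y428F cells. *Nuak1* rose by 0.47 in WT cells and 0.47 in Y428F cells, and *Prkaa1*, a catalytic subunit of AMPK, by 0.32 and 0.33. *Snrk* fell by 0.44 and 0.39. In WT cells the *Snrk* level was 65.3 ± 6.71 CPM in vehicle libraries and 47.8 ± 2.44 CPM in PTH libraries, with no overlap. *Nuak2* fell in WT cells (-0.43, adjusted p = 0.0231) and *Brsk1* in Y428F cells (-0.31, adjusted p = 0.0486). The values in the other line were -0.12 for *Nuak2* and -0.29 for *Brsk1*, and no kinase of this list passed the test of the difference between the lines. The call of *Nuak2* was lost without each WT library except vehicle replicate 2 (adjusted p = 0.0594 to 0.0905). That of *Brsk1* was lost without each of the 6 Y428F libraries and 2 WT libraries, replicate 3 with vehicle and replicate 2 with PTH (0.0563 to 0.197).

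Proteins that hold or release CRTCs showed 4 higher and 0 lower of 11 tested genes in WT cells, and 4 higher and 1 lower in Y428F cells, beside 11.8% and 12.4% of all genes called. *Ppp3r1*, the regulatory subunit of the phosphatase calcineurin, rose by 0.33 in WT cells and by 0.19 in Y428F cells. The 14-3-3 genes *Ywhah* and *Ywhaz* rose in both lines, by 0.32 and 0.24 in WT cells and by 0.21 and 0.20 in Y428F cells. *Ywhag* rose in WT cells by 0.25, and *Ywhae*, outside the rule for named genes and picked after its value was seen, rose in Y428F cells by 0.17. In the other line *Ywhag* was at 0.08 (adjusted p = 0.488) and *Ywhae* at 0.16 (adjusted p = 0.116). The catalytic subunit *Ppp3cc*, at 3.61 ± 0.835 CPM with vehicle and 2.28 ± 0.246 CPM with PTH, fell by 0.67 in Y428F cells, and its value in WT cells was -0.56 (adjusted p = 0.0841). Many of these calls depended on single libraries. In WT cells *Ywhag* was lost without vehicle replicate 2 or PTH replicates 1 or 2 (adjusted p = 0.0779 to 0.130), and *Ywhaz* without these or vehicle replicate 3 (0.0608 to 0.105). In Y428F cells *Ppp3r1* was lost without vehicle or PTH replicates 2 or 3 (0.0511 to 0.0806), *Ywhah* without vehicle replicates 1 or 2 or PTH replicate 1 (0.0535 to 0.0822), and *Ppp3cc* without vehicle replicates 1 or 2 or PTH replicates 2 or 3 (0.0747 to 0.210). *Ywhae* was lost without each Y428F library and PTH replicate 1 of WT cells (0.0511 to 0.186).

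Class IIa histone deacetylases are the other substrates of the salt-inducible kinases, and they repress MEF2 factors. *Hdac9* had 14 to 20 counts in WT libraries with vehicle and 65 to 80 with PTH, and rose by 2.22 ± 0.248 on the log2 scale (adjusted p = 7.42e-05). In Y428F cells it had 1 to 3 counts with vehicle and 4 to 5 with PTH. Its value there was 0.91, with no overlap between libraries, and did not pass (adjusted p = 0.397, edgeR). The difference in response, Y428F minus WT, was -1.30 and did not pass either (adjusted p = 0.790, edgeR), at counts too few to read a response. *Hdac4* fell by 0.34 and *Mef2a* rose by 0.28 in WT cells, so 2 genes rose and 1 fell of 7 tested. The call of *Hdac4* was lost without WT vehicle replicates 2 or 3 or PTH replicates 1 or 3 (adjusted p = 0.0785 to 0.182), and that of *Mef2a* without PTH replicates 1 or 2 (0.0596 and 0.0561). In Y428F cells 0 of 8 passed in edgeR, 2 by DESeq2, and 2 had an unadjusted p under 0.05, *Mef2a* (0.19) and *Hdac7* (-0.17), the latter named after its value was seen. *Hdac4* was at -0.18 there (adjusted p = 0.272). The CREB coactivators *Crebbp* and *Ep300* passed in neither line, with values from 0.01 to 0.06, and neither had an unadjusted p under 0.05 or passed in DESeq2.

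Of the 10 other CREB and ATF factors, *Creb3l2*, a factor of the secretory pathway, fell in both lines, by 0.30 in WT cells and 0.38 in Y428F cells. *Creb3* and *Atf2* rose in Y428F cells, both by 0.23, and had close values in WT cells that did not pass, 0.23 for *Creb3* (adjusted p = 0.104) and 0.20 for *Atf2* (adjusted p = 0.0557), with no overlap between libraries. The call of *Creb3l2* in WT cells was lost without each library except vehicle replicate 1 (adjusted p = 0.0714 to 0.156), and in Y428F cells without vehicle replicate 1 (0.0506). *Atf2* was lost without vehicle replicates 1 or 2 or PTH replicate 2 of Y428F cells (0.0582 to 0.0967), and *Creb3* without each Y428F library, replicate 3 of WT cells with vehicle or replicate 1 of WT cells with PTH (0.0507 to 0.178).

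The last list held 22 known CREB target genes, 7 of which were under 2 CPM in every group. Of 18 tested in WT cells, 5 rose and 1 fell with PTH (6.88% and 4.91% of all genes), with a median of 0.21 beside -0.01 over all genes. Of 21 tested in Y428F cells, 7 rose and 0 fell (6.61% and 5.78% of all genes), with a median of 0.34 beside -0.01. The 21 include *Areg*, which had 0 counts in all Y428F libraries and in WT libraries with vehicle. It could not pass there and entered this median at 0. The cAMP phosphodiesterase gene *Pde4d* had the largest rise in WT cells among the targets that passed the test, from a vehicle level of 12.8 ± 1.10 CPM to 33.5 ± 3.15 CPM (2.62-fold). In Y428F cells it rose from 6.54 ± 0.740 to 10.2 ± 0.855 CPM (1.56-fold). *Ptgs2*, which encodes the prostaglandin synthase COX-2, rose from 30.1 ± 6.92 to 59.7 ± 10.4 CPM in WT cells (1.99-fold) and from 24.0 ± 2.59 to 59.1 ± 4.82 CPM in Y428F cells (2.46-fold). The nuclear receptor gene *Nr4a1* rose 1.70-fold in WT cells and 2.05-fold in Y428F cells, and the neurotrophin gene *Bdnf* rose by 0.67 and 0.59 on the log2 scale. For these 4 genes no libraries of the treatments overlapped in either line.

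The remaining targets varied. The clock gene *Per1*, named after its values were seen like *Fos*, had log2 fold changes of -0.10 and -0.13, and *Fos* stood at 20 to 29 counts with PTH in WT cells, beside 22 to 25 with vehicle. *Nr4a2*, named after its value was seen, was the target that fell in WT cells (-0.44, adjusted p = 0.0238), a call lost without each WT library except vehicle replicate 1 (0.0525 to 0.119). *Dusp1*, a phosphatase gene named in the same way, rose by 0.24 in WT cells and 0.52 in Y428F cells. Its call in WT cells was lost without vehicle replicate 2 or PTH replicates 1 or 3 (0.0648 to 0.120). *Junb* rose by 0.55 in Y428F cells. *Nr4a3*, also named after its value was seen, rose by 1.86 in Y428F cells, from 2 to 6 counts with vehicle to 10 to 19 with PTH. In WT cells it had 3 to 5 and 9 to 14 counts, with a value of 1.61 that did not pass (adjusted p = 0.0809) and no overlap. *Fosb*, named in the same way, was at 0.87 in each line and did not pass (adjusted p = 0.0598 and 0.0625), with no overlap between libraries. The call of *Nr4a3* in Y428F cells was lost without vehicle or PTH replicates 2 or 3 (0.0511 to 0.113). *Tnfsf11*, which encodes the osteoclast factor RANKL, had 0 counts in all 12 libraries.

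**Figure D4:**
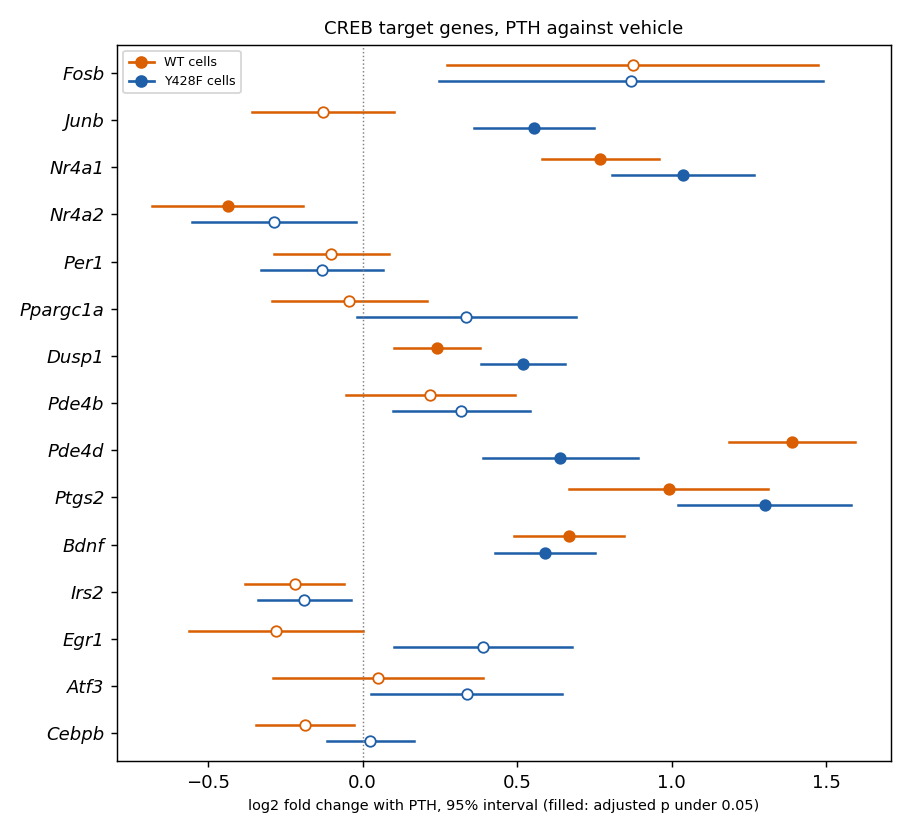
Log2 fold changes with PTH and 95% intervals of the 15 CREB target genes with at least 2 CPM in some group, in WT and Y428F cells. Filled points had an adjusted p under 0.05. *Pde4d* (1.39 in WT cells), *Ptgs2*, *Nr4a1* and *Bdnf* lie to the right in both lines, whereas *Junb* does so in Y428F cells (0.55) and not in WT cells (-0.13).

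Between the lines with vehicle, the lists held many differences, as did all genes tested, of which 22.4% were higher and 22.7% lower in Y428F cells. Of 8 class IIa deacetylase and MEF2 genes, 5 were lower and 1 higher in Y428F cells, with a median of -0.68 beside 0.01 over all genes. DESeq2 called 4 lower and 0 higher, and the higher gene, *Mef2c*, named after its value was seen, had 0 counts in all WT libraries and 1 to 4 in the Y428F libraries with vehicle. *Hdac5* was lower by 0.82, from 153 ± 9.16 to 87.2 ± 3.75 CPM, *Mef2a* by 0.70 and *Mef2d* by 0.65. *Creb3l1*, a factor of collagen-secreting cells, was lower by 1.12 and *Creb5* by 0.89, among 5 lower and 0 higher of 10 other CREB and ATF genes. Of 11 genes of proteins that hold or release CRTCs, 6 were higher and 2 lower, with a median of 0.20. The catalytic calcineurin subunit *Ppp3ca* was lower by 0.65. The 14-3-3 genes *Ywhae*, *Ywhag* and *Ywhah* were higher by 0.65, 0.36 and 0.27. *Melk*, a kinase of dividing cells, was higher by 1.17 and *Snrk* lower by 0.66. Of 13 genes of the LKB1 complex and PKA, 5 were higher and 3 lower. *Cab39l*, a relative of *Cab39*, was higher by 0.40 and the PKA inhibitor gene *Pkia* by 0.35, whereas the PKA inhibitor gene *Pkig* was lower by 0.50 and *Prkacb*, a catalytic subunit of PKA, by 0.26. Of the 21 tested CREB targets 7 were lower and 2 higher, with *Ppargc1a* (-1.69), *Egr1* (-1.25), *Nr4a1* (-1.22) and *Pde4d* (-0.97) the farthest from 0 among those named by the rule. With PTH 4 of the 21 were higher and 6 lower in Y428F cells (22.8% and 23.0% of all genes). *Pde4d* was then lower by 1.71, *Ppargc1a* by 1.30 and *Nr4a1* by 0.95, whereas *Pde4b* was higher by 0.74. Of the 8 class IIa deacetylase and MEF2 genes, 5 were lower and 1 higher in Y428F cells with PTH. *Hdac9* was lower by 4.10, but it had only 4 to 5 counts in these Y428F libraries, so the size of this difference is uncertain. *Hdac5*, *Mef2a* and *Mef2d* were lower by 0.83, 0.78 and 0.56.

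Across the 12 libraries, the genes whose log2 CPM was most like that of *Atf1*, among 11218 genes with at least 2 CPM, were *Rpf1* (Pearson's r = 0.970), *Prpf4b* (0.963) and an unnamed gene (ENSMUSG00000116048, 0.962). The libraries share lines and treatments, so these values describe the 4 groups more than 12 independent points. Among all pairs of members, named after their values were seen, the strongest positive correlations were *Sik1* and *Crtc1* (r = 0.86) and *Sik3* and *Crtc1* (0.85). *Sik3* and *Crtc3* (0.82) and *Creb1* and *Atf1* (0.81) followed. The strongest negative ones were *Sik1* and *Atf1* (-0.85), *Crtc1* and *Creb1* (-0.83) and *Sik1* and *Creb1* (-0.83). Other pairs were weaker over the same 12 libraries, down to 0.03 for *Sik2* and *Crem*.

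Stromal markers were checked against the label of the cells. Of 10 markers, 7 were at 2 CPM or more in every group, led by *Col1a2* at 12830 ± 932 CPM in WT cells with vehicle, while *Thy1* was at 0 in all libraries and *Lum* and *Dcn* had at most 4 counts in any library. Their summed level was 22107 CPM in WT cells with vehicle and 21705 with PTH, against 14057 and 11726 CPM in Y428F cells. *Col1a1* (7049 CPM in WT cells with vehicle) and *Col1a2* made up most of this sum, and 4 other markers were farther apart between the lines. With vehicle *Col3a1* was at 836 CPM for WT and 203 CPM for Y428F cells, *Pdgfrb* at 618 and 217 CPM, *Vcam1* at 158 and 46.6 CPM, and *Pdgfra* at 95.2 and 31.6 CPM. With PTH *Pdgfra* fell in both lines, by 0.59 in WT cells (adjusted p = 0.00146) and by 0.73 in Y428F cells (adjusted p = 7.17e-05). *Col1a1* fell by 0.33 in Y428F cells (adjusted p = 0.0218), a call lost without replicate 1 of either Y428F group (adjusted p = 0.115 and 0.124). Markers of blood cells (6), endothelium (3) and epithelium (4) summed to 2.39, 0.882 and 0.128 CPM in WT cells with vehicle and to 7.64, 8.29 and 0.924 CPM in Y428F cells with vehicle. The most abundant of these in Y428F cells was the endothelial cadherin gene *Cdh5* at 7.95 CPM, and *Cd3e*, *Epcam* and *Krt5* were at 0 in all libraries. Of 6 osteoblast markers, *Runx2* was at 90.2 ± 7.06 CPM in WT cells with vehicle and the other 5 were under 1 CPM. Of 5 adipocyte markers, which summed to 58.8 and 70.7 CPM in WT cells without and with PTH and to 46.7 and 73.4 CPM in Y428F cells, *Pparg* and *Fabp4* were at 2 CPM or more and *Adipoq* was at 0 in all libraries. *Pparg*, which encodes the main regulator of adipocyte differentiation, rose with PTH by 0.52 in WT cells (adjusted p = 0.00135) and by 0.71 in Y428F cells (adjusted p = 9.62e-07). *Fabp4*, at -0.09 and 0.32, did not pass in either line. With vehicle these genes went opposite ways between the lines, with *Pparg* at 31.7 CPM for WT and 39.9 CPM for Y428F cells and *Fabp4* at 26.9 and 6.57 CPM. The part of these levels in the differences between the lines or treatments was not tested.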

How the data were processed

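RNA of 12 libraries was sequenced, 3 in each of 4 groups. Per the labels and methods, the authors aligned reads with STAR 2.7.10b to GRCm39 and deposited RSEM expected counts per gene (GENCODE vM31), which were rounded to whole numbers here. Of 56980 identifiers, 56236 were matched to symbols in GENCODE vM39. Genes with at least 10 counts in total were tested with edgeR 4.0.16 (quasi-likelihood test, TMM factors, Benjamini-Hochberg adjustment) in R 4.3.3. PTH in WT cells was fitted on the 6 WT libraries (15583 genes), and the response of Y428F cells, its difference from WT and the differences between lines on all 12 (17691 genes). CPM used TMM library sizes. DESeq2 1.42.0, library totals, other filters, a replicate block and leaving out each library were alternatives. From each list, up to 4 changed genes with at least 2 CPM in a group were named, by size of change. Members and lists were chosen with earlier results of these data known. The script was tested on simulated counts. Whether reads were counted by strand is not given in the sources used here. Some results that the rules would name are not reported here.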

Additional observations from a re-analysis of the deposited data

Results flagged for a closer look

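The response to PTH differed between WT and Y428F cells for 2 of the 21 CREB target genes tested, by the interaction term in edgeR, which 0.413% of all genes passed. *Junb* was at 74.4 ± 12.2 CPM with vehicle and 67.8 ± 6.48 with PTH in WT cells, and at 62.3 ± 3.36 and 91.5 ± 5.00 CPM in Y428F cells (SD, n = 3), and its response was higher in Y428F cells by 0.69 on the log2 scale (SE 0.132, adjusted p = 0.0215, edgeR). *Pde4d*, which rose in both lines, had a difference of -0.74 (SE 0.158, adjusted p = 0.0381, edgeR), with mean levels of 12.8 and 33.5 CPM in the vehicle and PTH libraries of WT cells, and of 6.54 and 10.2 CPM in those of Y428F cells. The *Junb* call was lost without any one of 6 libraries, namely WT vehicle replicates 2 and 3, WT PTH replicate 1, Y428F vehicle replicates 2 and 3 and Y428F PTH replicate 3 (adjusted p = 0.0545 to 0.0794). The *Pde4d* call was lost without any one of 9, that is, each library except WT vehicle replicate 2, WT PTH replicate 3 and Y428F PTH replicate 2 (adjusted p = 0.0545 to 0.161). The cause of either difference was not tested.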

How the results depend on the processing

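Among the 9 genes, 1 passed for PTH in WT cells, and this count was 3 with library totals, 0 with the replicate block, 0 at an adjusted p limit of 0.01 and 0 to 2 when libraries were left out in turn. For PTH in Y428F cells 2 passed, with 1 at the limit of 0.01 and 1 to 2 when libraries were left out. Between the lines the counts were 5 with vehicle (3 at the limit of 0.01, 4 to 5 when libraries were left out) and 7 with PTH (6 to 7). In the order of levels, the longest transcript as length kept 7 of 9 places in WT cells with vehicle, 6 with PTH, 5 in Y428F cells with vehicle and 4 with PTH. *Creb1*, which did not pass between the lines with vehicle, did so with DESeq2's size factors in edgeR (adjusted p = 0.0454), library totals (0.0108) or at least 10 counts in every library (0.0282), and with PTH it no longer passed without a filter (0.0534). Values near 0 changed sign: *Sik2* between the lines with PTH was 0.032 with library totals, and leaving out libraries gave -0.11 to 0.030 for it and -0.029 to 0.088 for *Crtc2*, -0.057 to 0.22 for *Crem* with PTH in WT cells, and -0.11 to 0.055, -0.12 to 0.043 and -0.038 to 0.055 for the differences in response of *Crtc1*, *Crtc3* and *Atf1*. Taken over all genes, samples with the same replicate number did not deviate together (mean correlation of residuals 0.0019 over 18 pairs, from -0.031 to 0.037). This does not show whether they share more than a number. The replicate block left the other counts at 2, 0, 5 and 7. The cause of these changes was not tested. With 3 libraries in each group, small changes of genes with few counts, such as *Crem*, may have been missed. The simulated counts used to test the script held changes of set sizes. What size of change could be detected in each of the 9 genes was not tested.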
